A study of Rattus norvegicus with 32 samples.

Results

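RNA of enzymes of DNA methylation and chromatin silencing was examined in the rat uterus, from a list of 9 genes. The counts measure RNA only, not methylation, histone marks or protein. Listed were the DNA methyltransferases Dnmt1, Dnmt3a and Dnmt3b, the methylcytosine oxidases Tet1, Tet2 and Tet3, the hemimethylated-DNA reader Uhrf1, the histone methyltransferase Ezh2 and the histone deacetylase Hdac9. A gene was taken as the row of the count table whose NCBI gene identifier belongs to one of these rat symbols. Of the 9 genes, 6 had such a row among the 17327 genes of the table: Dnmt1 (84350), Dnmt3a (444984), Dnmt3b (444985), Uhrf1 (316129), Ezh2 (312299) and Hdac9 (687001). All 6 passed the filter on low counts, and Tet1, Tet2 and Tet3 are not analysed here.

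The series asked what long-term oral bisphenol A (BPA) does to gene expression in the uterus, with ethinyl estradiol (EE2), an estrogen active by mouth, given for comparison. Sprague-Dawley rats of the NCTR colony (Sprague-Dawley/CD23/NctrBR) were exposed by gavage of their dams from gestation day 6 to labour, and were then gavaged themselves from postnatal day 1 up to PND365, about a year of age, when the uterus was collected. The 8 groups, of 4 libraries each, were the control, which received the vehicle of 0.3% carboxymethylcellulose (CMC), EE2 at daily doses of 0.05 or 0.5 µg/kg body weight, and BPA at daily doses of 2.5, 25, 250, 2500 or 25000 µg/kg, and are named below by agent and dose. The labels name no animal, litter, batch or cycle stage, so the libraries were numbered 1 to 4 within a group and every p-value measures only the spread between libraries.

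CpG methylation is laid down on bare DNA mainly by Dnmt3a and Dnmt3b, and is copied after replication by Dnmt1, which Uhrf1 brings to the half-methylated daughter strands. Ezh2 is the catalytic subunit of Polycomb repressive complex PRC2, which trimethylates lysine 27 of histone H3. Hdac9 is a class IIa deacetylase that represses MEF2 target genes, largely by recruiting other corepressors. In the uterus these enzymes act in a tissue whose epithelium and stroma divide and regress under estrogen and progesterone.

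Libraries held between 11777809 and 24661856 counts. The median correlation of a library's log2 levels with the other libraries, taken across 11482 genes, was 0.888 to 0.910 in 4 libraries (BPA 2.5 libraries 1 and 3, BPA 250 library 1 and BPA 25000 library 3) and 0.924 to 0.954 in the other 28. In the list of uterine markers, Emx2, Esr1 and Pgr were at medians of 121, 139 and 179 CPM (gene counts as a share of scaled library size). Hoxa13 reached no more than 0.127 CPM, and Hoxa10 and Hoxa11 of that list had no row. Whole uterus was sequenced, so fewer cells of a type and less RNA per cell cannot be told apart in any value below.

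Promoters are shown for the genes the results turn on: Uhrf1, which followed genes of dividing cells within groups, Hdac9, the 1 enzyme of the 6 that edgeR called against control, and Dnmt1 and Ezh2 beside them. RefSeq (assembly GRCr8, matched by gene identifier and not the rn5 build of the counts) lists 7 promoter windows for 5 of the 6 genes, each running from 250 bases before to 50 bases after a start site. Windows were searched on both strands for E2F-type sites (TTTCCCGC, TTTCGCGC, TTTGCCGC or TTTGGCGC), the cell cycle element CHR (TTTGAA), the estrogen response half-site AGGTCA, the GC box GGGCGG and the CCAAT box, and matches are in capitals. Windows for Uhrf1 (chr9:1222936-1223235, plus strand, the third of its 3 starts), Dnmt1 (chr8:27762792-27763091, minus strand), Ezh2 (chr4:77687134-77687433, minus strand) and Hdac9 (chr6:57052522-57052821, minus strand) are given 5′ to 3′ along the gene.
Uhrf1: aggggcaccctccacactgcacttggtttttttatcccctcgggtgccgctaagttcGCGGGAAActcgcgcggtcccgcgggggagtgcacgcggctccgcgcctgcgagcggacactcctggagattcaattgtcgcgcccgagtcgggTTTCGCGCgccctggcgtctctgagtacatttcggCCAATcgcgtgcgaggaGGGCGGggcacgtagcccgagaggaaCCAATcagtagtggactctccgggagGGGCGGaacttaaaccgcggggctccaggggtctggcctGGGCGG
Dnmt1: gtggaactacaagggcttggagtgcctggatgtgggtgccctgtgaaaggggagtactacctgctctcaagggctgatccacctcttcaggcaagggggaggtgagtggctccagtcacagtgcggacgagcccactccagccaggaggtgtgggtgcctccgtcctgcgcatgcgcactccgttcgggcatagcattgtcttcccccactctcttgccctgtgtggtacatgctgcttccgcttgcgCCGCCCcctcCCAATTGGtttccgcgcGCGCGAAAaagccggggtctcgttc
Ezh2: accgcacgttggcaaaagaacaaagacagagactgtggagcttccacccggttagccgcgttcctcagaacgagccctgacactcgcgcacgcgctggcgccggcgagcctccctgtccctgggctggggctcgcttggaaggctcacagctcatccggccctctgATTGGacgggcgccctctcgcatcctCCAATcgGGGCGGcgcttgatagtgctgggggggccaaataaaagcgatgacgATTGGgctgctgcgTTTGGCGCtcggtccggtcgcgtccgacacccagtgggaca
Hdac9: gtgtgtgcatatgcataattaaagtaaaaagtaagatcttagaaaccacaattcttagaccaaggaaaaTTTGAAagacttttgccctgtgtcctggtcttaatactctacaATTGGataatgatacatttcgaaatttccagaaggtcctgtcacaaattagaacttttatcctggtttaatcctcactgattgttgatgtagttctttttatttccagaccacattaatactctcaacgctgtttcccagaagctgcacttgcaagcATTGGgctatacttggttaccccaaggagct

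An E2F-type match was present in 2.14% of 33469 promoter windows. The Uhrf1 window held 2 of them, TTTCCCGC on the minus strand at -193 and TTTCGCGC on the plus strand at -99 relative to the start site, and the windows of its other starts held 0. The Dnmt1 window held TTTCGCGC on the minus strand at 26, downstream of an overlapping pair of CCAAT boxes. The Ezh2 window held TTTGGCGC at 10. The Hdac9 window held no E2F-type match and 1 CHR at -181, a motif found in 18.35% of windows, and the Dnmt3a window (chr6:32598352-32598651, plus strand) held 1 half-site AGGTCA at -76, found in 16.18%. GC boxes were in 33.06% and CCAAT boxes in 37.49% of windows. The Hdac9 window was also poor in the substrate of the methyltransferases, with 2 CpG sites and 37.0% GC, against 35 and 66.3% for the Uhrf1 window shown, 30 and 64.7% for Ezh2, 21 and 74.3% for Dnmt3a, 17 and 62.3% for Dnmt1, and medians of 7 and 51.7% over all windows. The windows of the other Uhrf1 starts held 8 and 13 CpG sites, at 55.0% and 59.3% GC. The motif matches describe letters in a window and show no binding.

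Hdac9 was the 1 enzyme of the 6 that edgeR called against control. Its RNA was 4.27 times the control mean at EE2 0.5 and 4.31 times at BPA 25000, and it was 2.35 to 3.22 times the control mean at the other 5 exposures. Control libraries were at 1.81, 0.962, 1.16 and 2.16 CPM, a mean of 1.52 ± 0.56 (SD, n = 4) resting on 13 to 31 counts in each. EE2 0.5 libraries were at 9.93, 7.66, 5.23 and 3.19 CPM (6.50 ± 2.93), and BPA 25000 libraries were at 4.51, 7.72, 6.86 and 7.15 CPM (6.56 ± 1.42). All 8 lay above the highest control library, those of BPA 25000 closely together and those of EE2 0.5 spread over a wider range. How many of all tested genes separate from control in this way was not counted, here or for the groups below. The same holds for the other enzymes, also where only some libraries of a group lay outside the control range.

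At the lowest dose of each agent Hdac9 also lay above control. BPA 2.5 libraries were at 3.80, 8.47, 3.67 and 2.49 CPM (4.61 ± 2.64), with library 2 the high one, and EE2 0.05 libraries were at 3.81, 8.20, 2.89 and 4.70 CPM (4.90 ± 2.32), again with library 2 highest. Neither group overlapped the control. BPA 2500, at 3.59, 4.60, 2.23 and 4.61 CPM (3.76 ± 1.12), did not overlap it either, though its library 3 was only just above the highest control library. The remaining groups did overlap the control, each in 1 library: BPA 25 was at 6.70, 1.70, 2.85 and 3.07 CPM (3.58 ± 2.17) and BPA 250 at 4.01, 2.04, 6.68 and 4.68 CPM (4.35 ± 1.92). Ordered by mean, the groups ran from control through BPA 25, BPA 2500, BPA 250, BPA 2.5, EE2 0.05 and EE2 0.5 to BPA 25000, and no neighbouring means in that order were further apart than the larger of their SDs.

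**Figure D1:**
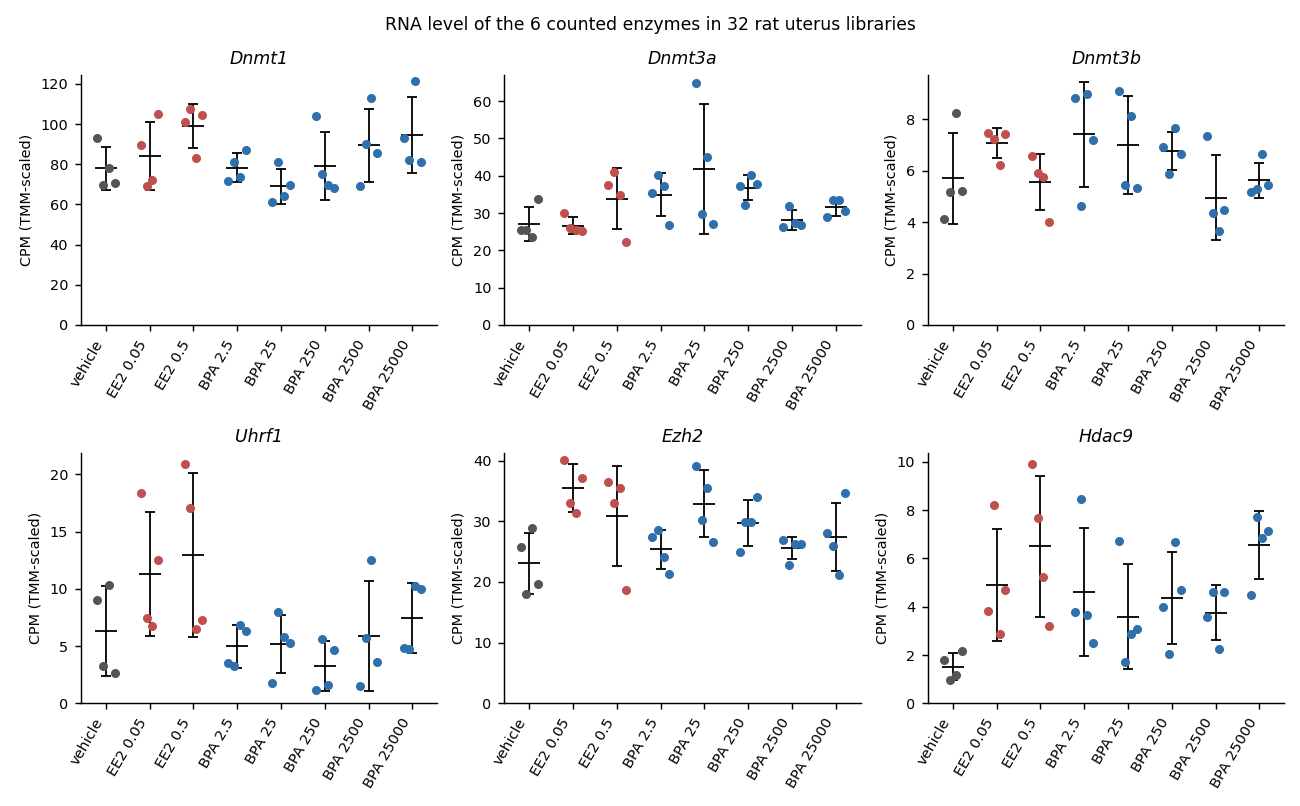
Level of each of the 6 counted enzymes (TMM-scaled CPM, linear axis from 0) in every library of the 8 groups; points are libraries, the horizontal bar is the group mean and the whiskers are 1 SD (n = 4). Hdac9 was lowest in the vehicle control, at 1.52 ± 0.56 CPM, and highest at BPA 25000, at 6.56 ± 1.42 CPM, whereas Uhrf1 spread widely within most groups.

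In the edgeR quasi-likelihood test with Benjamini-Hochberg adjustment over 13312 genes, Hdac9 rose at EE2 0.5 (log2 fold change 2.09, SE 0.47, adjusted p = 0.042). It rose at BPA 25000 (2.10, SE 0.47, adjusted p = 0.024), at BPA 2.5 (1.59, SE 0.46, adjusted p = 0.026) and at BPA 250 (1.50, SE 0.46, adjusted p = 0.042) in the same edgeR fit. Hdac9 was thus 1 of 6 enzymes called at EE2 0.5, BPA 2.5, BPA 250 and BPA 25000, where 0.556%, 11.4%, 8.79% and 2.32% of all tested genes were called. These comparisons share their 4 control libraries, which hold 81 Hdac9 counts in all. The log2 fold changes at EE2 0.05 (1.68, SE 0.46, adjusted p = 0.22), BPA 25 (1.23, SE 0.46, adjusted p = 0.11) and BPA 2500 (1.30, SE 0.46, adjusted p = 0.34) did not pass in edgeR.

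The Hdac9 calls, made on a p adjusted over all tested genes, did not hold without some single libraries. At EE2 0.5 leaving out control library 2, 3 or 4 ended the edgeR call (adjusted p = 0.167, 0.206 and 0.0737), as did leaving out any 1 of the EE2 0.5 libraries 1 to 4 (0.0944, 0.0682, 0.0916 and 0.0730). At BPA 2.5 it ended in edgeR when control library 2, control library 3 or BPA 2.5 library 2 was left out (adjusted p = 0.0846, 0.0897 and 0.102). At BPA 250 it was lost in edgeR without any 1 of control libraries 1 to 4 (adjusted p = 0.0646, 0.103, 0.104 and 0.0648) or without BPA 250 library 1, 3 or 4 (0.0797, 0.0962 and 0.0873). At BPA 25000 it ended in edgeR when control library 2, control library 3, BPA 25000 library 2 or BPA 25000 library 4 was left out (adjusted p = 0.0909, 0.0771, 0.0893 and 0.0702). The log2 fold change itself stayed between 1.12 and 2.32 in all these fits, as the plot of Hdac9 without single libraries shows. At EE2 0.5 it rose from 2.087 to 2.315 without EE2 0.5 library 4 and to 2.308 without control library 4, although the call ended. Over all genes, edgeR called 0 to 206 at EE2 0.5 when 1 library was left out, and 74 with all libraries. The calls at BPA 2.5 and BPA 250 were also lost without the 4 libraries of low correlation (edgeR adjusted p = 0.0622 and 0.0669), with only the 2 groups compared in the fit (0.107 and 0.0685), and in limma voom (0.0712 and 0.0812). Those at EE2 0.5 and BPA 25000 passed in all 3 of these alternatives.

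**Figure D2:**
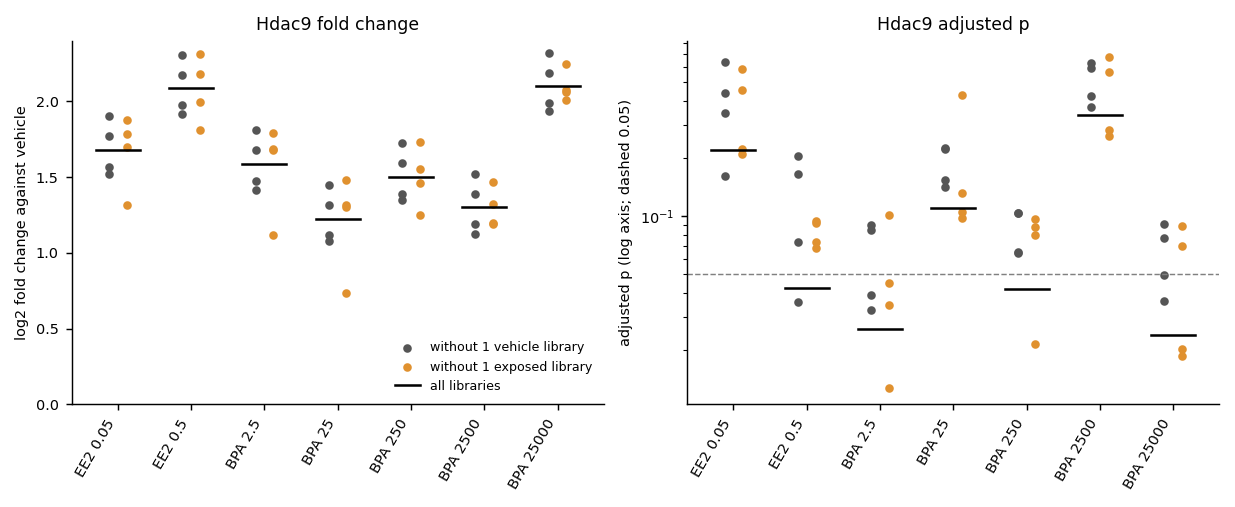
Hdac9 log2 fold change (left, linear axis) and adjusted p (right, log axis, dashed line at 0.05) at each of the 7 exposures with all libraries (black bars) and after leaving out 1 control library (grey points) or 1 exposed library (orange points). Fold changes stayed above 0 in every fit, while adjusted p crossed 0.05 at EE2 0.5, BPA 2.5, BPA 250 and BPA 25000.

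Pooling the BPA doses, from the same libraries and controls, gave the same enzyme. The mean of the 5 BPA doses was 1.54 above control on the log2 scale (SE 0.39, edgeR adjusted p = 0.047), making Hdac9 the 1 enzyme of 6 called in a comparison that called 1.34% of genes. Leaving out control library 1, 2, 3 or 4 ended this edgeR call (adjusted p = 0.0710, 0.179, 0.187 and 0.111), as did leaving out BPA 2.5 library 1 or 3, BPA 25 library 1 or 3, BPA 250 library 1, 3 or 4, BPA 2500 library 2 or 4, or BPA 25000 library 2 or 4 (0.0522 to 0.0652). Over any difference among the 8 groups Hdac9 was again the 1 enzyme called (edgeR F = 3.70, adjusted p = 0.024), where 31.7% of genes were called. That edgeR call ended when control library 2 or control library 3 was left out (adjusted p = 0.0745 and 0.0728).

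For the mean of both EE2 doses 0 of the 6 enzymes passed in edgeR, with 0.0676% of genes called, although Hdac9 had a log2 fold change of 1.88 (SE 0.43, adjusted p = 0.067). At an unadjusted p under 0.05 there were 2, Hdac9 and Ezh2. DESeq2 called 1, Hdac9, and limma voom called 3, Hdac9, Ezh2 and Uhrf1. For this mean 2001 of all 13312 genes had an unadjusted edgeR p under 0.05, DESeq2 called 333 and limma voom 1856. The higher EE2 dose did not separate from the lower: Hdac9 differed by 0.41 (SE 0.44, edgeR adjusted p = 0.79), and 0 of 6 enzymes were called by edgeR, DESeq2 or limma voom, with 0 at an unadjusted edgeR p under 0.05 and 0.015% of genes called. Along the 5 BPA doses the Hdac9 slope was 0.11 per 10-fold dose (SE 0.10, edgeR adjusted p = 0.53).

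Summed markers of several cell types also stood apart from control, both where Hdac9 was called and where it was not, and 13 marker lists were compared. At EE2 0.5 the range of 3 lists lay wholly above that of the control: 4 red blood cell markers (347.6 ± 43.5 CPM, 288.4 to 392.0, against 181.4 ± 40.3, 145.9 to 217.4), 6 squamous epithelial markers (140.9 ± 96.8 CPM, 33.99 to 246.8, against 12.55 ± 7.80, 4.49 to 19.3) and 7 macrophage markers (488.2 ± 72.1 CPM, 406.8 to 579.6, against 307.5 ± 49.7, 236.8 to 352.9). At BPA 2.5 this held for the squamous markers (33.19 ± 4.84 CPM, 28.45 to 39.95). At BPA 250 it held for the red blood cell markers (325.9 ± 66.5 CPM, 257.7 to 392.1) and for 7 stromal markers (21230 ± 1436 CPM, 19600 to 23040, against 12440 ± 4742, 6637 to 17620). At BPA 25000 it held for 5 ciliated cell markers (10.2 ± 6.31 CPM, 4.94 to 18.1, against 2.33 ± 0.99, 1.26 to 3.48), and the 4 uterine markers lay below control (384.2 ± 55.4 CPM, 333.2 to 438.3, against 536.4 ± 69.0, 443.9 to 602.5). In the control 1 of the squamous markers and 1 of the uterine markers, Hoxa13, were at 0. The squamous markers did not move alike. Trp63 made most of the control sum, and its control mean of 11.24 CPM lay above its median over all libraries (3.684), as did that of Krt13 (1.16 against 0.900). Control means of Krt5, Krt14 and Calml3 (0.061, 0.052 and 0.035 CPM) lay below their medians (0.881, 0.394 and 1.08). Smooth muscle markers had their highest mean in the control, at 24450 ± 7039 CPM (17540 to 33760) against 15140 to 19840 in the exposed groups, and these ranges overlapped, as did those of the lists not named at these 4 exposures. Where Hdac9 was not called, macrophage markers lay above control at EE2 0.05 (366.7 to 479.2 CPM) and uterine markers below it (338.7 to 435.8). At BPA 25 red blood cell (343.0 to 420.5 CPM) and ciliated cell markers (22.46 to 41.83) lay above control. At BPA 2500 red blood cell (226.1 to 446.3 CPM), macrophage (353.6 to 561.3) and ciliated cell markers (4.911 to 119.6) did so. The part of these cells in the Hdac9 values was not tested.

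The maintenance pair, Dnmt1 and Uhrf1, did not pass against control at any dose. Dnmt1 varied least of the 6 enzymes, 1.98-fold between its lowest library (61.4 CPM, BPA 25 library 1) and its highest (122 CPM, BPA 25000 library 3). Controls were at 93.0, 69.6, 78.3 and 70.9 CPM (77.9 ± 10.7), and EE2 0.5, the highest group, at 101, 107, 83.0 and 105 CPM (99.1 ± 11). In 3 of those 4 EE2 0.5 libraries Dnmt1 lay above all controls, yet the log2 fold change of 0.35 (SE 0.17) did not pass in edgeR (adjusted p = 0.32). Group means ran from 69.1 CPM at BPA 25 to 99.1 CPM at EE2 0.5, and no neighbours in that order were further apart than the larger SD.

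Uhrf1 had the widest range of the 6, 17.9-fold from 1.17 CPM in BPA 250 library 1 to 20.9 CPM in EE2 0.5 library 1. Controls were at 9.05, 3.26, 10.4 and 2.65 CPM (6.33 ± 3.95), a high pair and a low pair. EE2 0.05 libraries were at 18.4, 7.47, 6.74 and 12.5 CPM (11.3 ± 5.41), and EE2 0.5 libraries were at 20.9, 17.04, 6.51 and 7.29 CPM (12.9 ± 7.15). Both groups held 2 libraries above all controls and 2 among them. BPA groups lay lower, with means of 3.27 CPM at BPA 250 to 7.46 CPM at BPA 25000, and in BPA 250 the libraries at 1.17 and 1.60 CPM lay below all controls while those at 5.63 and 4.68 CPM did not. The mean of the BPA doses was 1.22 below that of the EE2 doses on the log2 scale (SE 0.32) and did not pass in edgeR (adjusted p = 0.065), so 0 of 6 enzymes were called there, with 2 at an unadjusted p under 0.05 (Uhrf1 and Ezh2) and 0.841% of genes called. DESeq2 and limma voom each called 1, Uhrf1 (adjusted p = 0.0166 and 0.0246), and edgeR called it without BPA 2.5 library 4, BPA 250 library 2 or BPA 2500 library 3 (0.0498, 0.0412 and 0.0253). In this comparison 1902 of all 13312 genes had an unadjusted edgeR p under 0.05, DESeq2 called 383 and limma voom 510.

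Of the de novo methyltransferases, Dnmt3a was highest at BPA 25, though 2 libraries carried that mean. BPA 25 libraries were at 65.0, 29.7, 45.1 and 27 CPM (41.7 ± 17.5) against 25.4, 25.4, 23.6 and 33.9 CPM in the control (27.03 ± 4.62), so libraries 1 and 3 lay above all controls and libraries 2 and 4 among them. BPA 250 libraries were more alike, at 37.4, 32.1, 40.2 and 37.8 CPM (36.9 ± 3.40), with 3 above all controls. At BPA 25 the log2 fold change was 0.62 (SE 0.20) and did not pass in edgeR (adjusted p = 0.076), so 0 of 6 enzymes were called in a comparison that called 1.92% of genes, with 3 at an unadjusted p under 0.05 (Dnmt3a, Ezh2 and Hdac9). DESeq2 called 1, Dnmt3a (adjusted p = 0.0381), limma voom called 1, Ezh2 (0.0321), and edgeR called Dnmt3a without BPA 25 library 4 (0.0307). Of all 13312 genes, 3242 had an unadjusted edgeR p under 0.05 at BPA 25, DESeq2 called 1080 and limma voom 2650. At the 7 exposures the Dnmt3a log2 fold change ran from -0.02 at EE2 0.05 to 0.62.

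Dnmt3b was low and was called in no comparison of the edgeR fit, though limma voom called it at BPA 2.5, as given below. Its libraries ran from 3.64 to 9.08 CPM, on 48 to 139 counts, and its group means from 4.95 ± 1.64 CPM at BPA 2500 to 7.41 ± 2.03 CPM at BPA 2.5, with the control at 5.70 ± 1.78 (4.14, 5.18, 8.26 and 5.22). Every exposed group overlapped the control. Along the BPA doses its slope was -0.13 per 10-fold dose (SE 0.06, edgeR adjusted p = 0.17), and that of Dnmt1 was 0.09 (SE 0.04, adjusted p = 0.15). In this trend edgeR called 0 of 6 enzymes and 4.62% of genes, with Dnmt3b and Dnmt1 the 2 at an unadjusted p under 0.05, DESeq2 called 0 and limma voom called 1, Dnmt3b (adjusted p = 0.0066). Over all 13312 genes the trend had 3034 at an unadjusted edgeR p under 0.05, with 1073 called by DESeq2 and 2703 by limma voom.

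Ezh2 stood above control in every library at EE2 0.05, and the share of all genes doing so was not counted. Those libraries were at 40.2, 33.1, 31.4 and 37.2 CPM (35.5 ± 3.98), and the control libraries at 25.7, 18.1, 28.8 and 19.7 CPM (23.1 ± 5.05). At EE2 0.5 libraries 1 to 3 were also above all controls, at 36.4, 33.0 and 35.4 CPM, and library 4, at 18.6 CPM, was among the lowest of the series (30.9 ± 8.29). Ezh2 means at the BPA doses ran from 25.4 ± 3.25 CPM at BPA 2.5 to 32.9 ± 5.51 CPM at BPA 25, and the control mean was the lowest of the 8.

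None of these Ezh2 differences passed in edgeR. The log2 fold change was 0.62 at EE2 0.05 (SE 0.19, adjusted p = 0.23), 0.42 at EE2 0.5 (SE 0.19, adjusted p = 0.27), 0.51 at BPA 25 (SE 0.19, adjusted p = 0.10) and 0.14 to 0.36 at the other BPA doses. At EE2 0.05, where edgeR called 0.0451% of genes, it called 0 of 6 enzymes, with 2 at an unadjusted p under 0.05 (Ezh2 and Hdac9), DESeq2 called 0, and limma voom called both (adjusted p = 0.0049 and 0.0313). Of all 13312 genes there, 1528 had an unadjusted edgeR p under 0.05, DESeq2 called 65 and limma voom 1375. Limma voom also called Ezh2 at EE2 0.5, BPA 25, BPA 250 and BPA 25000 (adjusted p = 0.027, 0.0321, 0.0299 and 0.0203), and at BPA 2.5 it called Dnmt3b in place of Hdac9 (0.0157). Over all genes limma voom called 1221, 2650, 2991, 4116 and 4103 at these exposures, in that order. At BPA 2500 edgeR, DESeq2 and limma voom each called 0 of 6 enzymes, with Hdac9 the 1 at an unadjusted edgeR p under 0.05, and edgeR called 0% of all genes (0 of 13312, with 1353 at an unadjusted p under 0.05, 87 called by DESeq2 and 0 by limma voom). Ezh2 overlaps Cul1 and Uhrf1 overlaps Arrdc5 in RefSeq, both counted genes, and without stated use of strand their reads cannot be told apart.

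**Figure D3:**
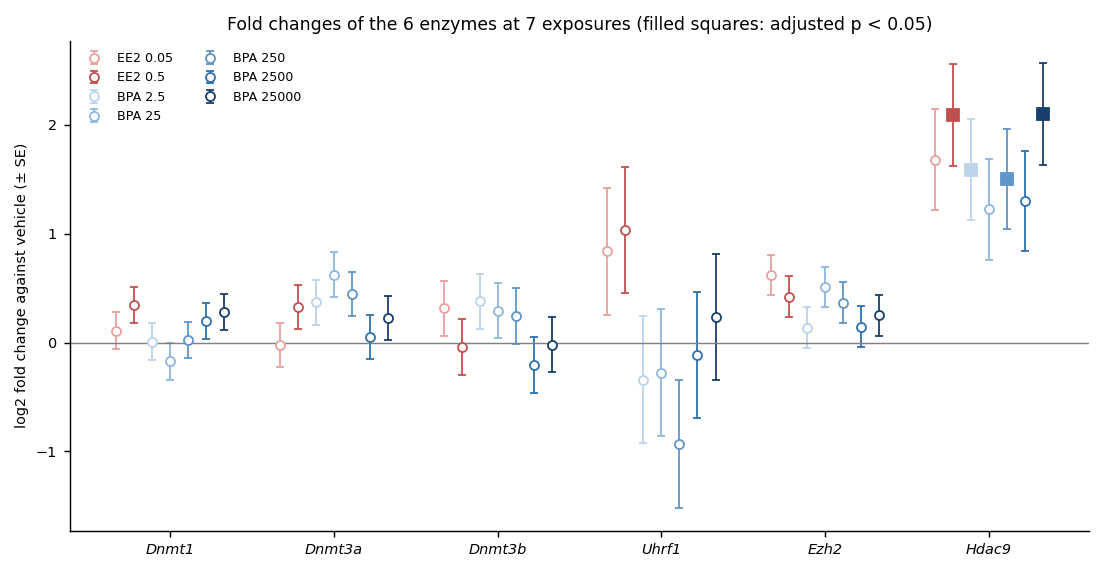
Log2 fold change against the vehicle control (± SE, edgeR) of the 6 enzymes at the 7 exposures; red marks EE2 and blue BPA, darker for higher doses, and filled squares mark an adjusted p under 0.05. The filled squares all belong to Hdac9, at 2.09, 1.59, 1.50 and 2.10, and the Uhrf1 errors were the widest, with an SE of 0.58 at EE2 0.05.

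Most of the variation of 5 of the 6 enzymes lay within groups, which is also the case for a gene without group differences. The share of log2 CPM variance left after group means were removed was 66.8% for Dnmt3b, 62.3% for Dnmt1, 61.7% for Dnmt3a, 59.7% for Uhrf1, 57.8% for Ezh2 and 44.9% for Hdac9. Correlations of these group-centred values over the 32 libraries were therefore computed for the 15 pairs of enzymes and for each enzyme with the mean of 20 proliferation genes, 21 relations in all. Libraries were permuted within groups, and p-values were adjusted over the 21.

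Uhrf1 followed the proliferation genes, which include Mki67, Top2a, Cdk1 and the replicative helicase subunits Mcm2 to Mcm7 but no member of the 9. Pearson's r was 0.885 and Spearman's rho 0.900 (permutation p = 1e-05, the smallest the permutations can give, adjusted p = 0.00021 for both). Without the 2 libraries farthest from the median r was 0.853, and without the 4 libraries of low correlation it was 0.906. In the control, the libraries with the high Uhrf1 pair were also those with the higher proliferation means. For Dnmt1 r was 0.464 and did not pass (permutation p = 0.0137, adjusted p = 0.096), whereas rho, at 0.512, did (permutation adjusted p = 0.0446). The values of r for Ezh2 (r = 0.288, permutation adjusted p = 0.309), Dnmt3b (0.094, 0.688), Dnmt3a (-0.170, 0.501) and Hdac9 (-0.251, 0.309) did not pass.

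Dnmt1 and Uhrf1 themselves correlated with r of 0.458 and rho of 0.454 (permutation p = 0.0273 and 0.0227, adjusted p = 0.143 and 0.119). Without the 4 libraries of low correlation r was 0.711 (permutation adjusted p = 0.00693), and without the 2 libraries farthest from the median it was 0.681 (0.00809). Dnmt1 and the proliferation mean gave r of 0.684 (permutation adjusted p = 0.00693) and 0.580 (0.0433) in the same alternatives. The calls for Dnmt1 therefore rested on which libraries were kept. With a prior count of 0.5 and all 32 libraries, rho with the proliferation mean did not pass either (0.4835, permutation adjusted p = 0.073).

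Dnmt3a and Hdac9 were high in the same libraries within groups, with r of 0.680 and rho of 0.666 (permutation p = 0.00023 and 0.00018, adjusted p = 0.00242 and 0.00189). BPA 25 library 1 was the highest of its group for both, and EE2 0.5 library 4 the lowest of its group for both. Without the 2 libraries farthest from the median of Dnmt3a, r was 0.513 and no longer passed (permutation p = 0.0117, adjusted p = 0.0615; rho 0.540, adjusted p = 0.0406), so the relation for r rested on those libraries. Without the 4 libraries of low correlation it was 0.698 (permutation adjusted p = 0.00693).

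**Figure D4:**
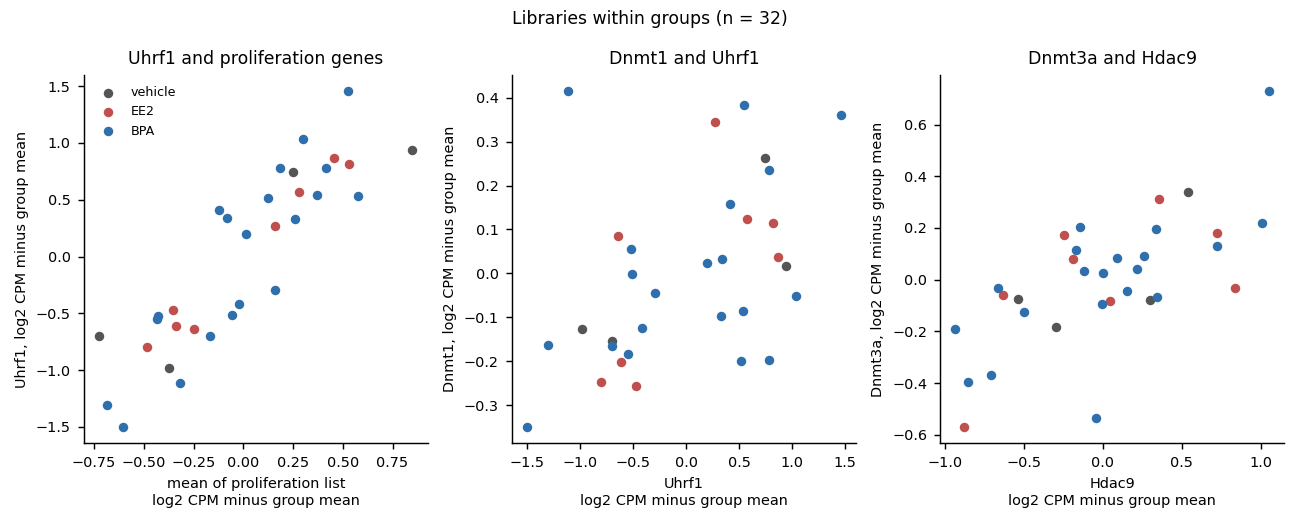
Group-centred log2 CPM of Uhrf1 against the mean of 20 proliferation genes (left), Dnmt1 against Uhrf1 (middle) and Dnmt3a against Hdac9 (right); each point is 1 of 32 libraries, grey for control, red for EE2 and blue for BPA. Points follow a narrow band on the left (r = 0.885), a loose one in the middle (r = 0.458) and an intermediate one on the right (r = 0.680).

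The genes most like each enzyme over the 32 group-centred libraries, of 11482 compared, are given as a description. For Uhrf1 they were Mcm5, itself 1 of the 20 proliferation genes, Cep55 and Kntc1 (r = 0.913, 0.910 and 0.906), and for Dnmt1 Nop14, Mybbp1a and Ube2s (0.782, 0.760 and 0.751). For Dnmt3a they were Npr3, Rufy2 and Dgki (0.798, 0.796 and 0.770), and for Dnmt3b Sephs1, Osgepl1 and Zfp612 (0.761, 0.751 and 0.748). For Ezh2 they were Brca2, RGD1359108 and Cdk6 (0.800, 0.733 and 0.730), and for Hdac9 Disp1, Apba1 and Rnd3 (0.789, 0.752 and 0.749). All were taken over the same 32 libraries, which differ in depth, and the labels give no cycle stage.

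The partners of the 6 enzymes were described from lists of the surrounding pathways. Of 21 tested partners in DNA methylation, demethylation and methyl-CpG reading, Idh2, a mitochondrial source of the TET cofactor 2-oxoglutarate, rose at BPA 2.5 (log2 fold change 0.88, SE 0.26, edgeR adjusted p = 0.025) from 130 ± 29.4 to 240 ± 14.2 CPM. Tdg, the glycosylase that removes oxidised methylcytosine, fell by 0.50 at BPA 2.5 (SE 0.15, edgeR adjusted p = 0.027) and by 0.64 at BPA 25000 (SE 0.15, adjusted p = 0.025). Uhrf2, the paralogue of Uhrf1, rose at BPA 25 (0.52, SE 0.12, edgeR adjusted p = 0.038) and BPA 250 (0.56, SE 0.12, adjusted p = 0.0095), from 120 ± 9.75 to 172 ± 29.9 and 177 ± 12.2 CPM, and Usp7, the deubiquitinase that stabilises Uhrf1 and Dnmt1, fell by 0.42 at BPA 250 (SE 0.11, edgeR adjusted p = 0.019). The list's called counts were 2, 1, 2 and 1 of 21 at BPA 2.5, 25, 250 and 25000, where 11.4%, 1.92%, 8.79% and 2.32% of all tested genes were called, and 0 at the other exposures. Its median log2 fold change ran from -0.03 at EE2 0.5 to 0.18 at BPA 250, against medians of -0.02 to 0.05 for all tested genes.

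Of 19 Polycomb genes, which surround Ezh2, 3 passed at BPA 2.5 (11.4% of all tested genes did), 1 at BPA 25 (1.92%), 3 at BPA 250 (8.79%) and 0 elsewhere. Rbbp7, a histone-binding subunit of PRC2 and of deacetylase complexes, fell by 0.98 at BPA 2.5 (SE 0.30, edgeR adjusted p = 0.031), from 815 ± 172 to 413 ± 99.2 CPM. Cbx7, a reader of trimethylated lysine 27 in PRC1, rose there (0.94, SE 0.25, edgeR adjusted p = 0.014), and Cbx6, a related reader, fell by 0.54 at BPA 25 (SE 0.14, adjusted p = 0.046) and by 0.52 at BPA 250 (SE 0.14, adjusted p = 0.027). Pcgf6, a subunit of variant PRC1, was at 34.5 ± 3.26 CPM in the control, fell by 0.44 at BPA 2.5 (edgeR adjusted p = 0.024; 25.4 ± 1.09 CPM) and rose by 0.48 at BPA 250 (adjusted p = 0.023; 48.0 ± 2.73 CPM). Bmi1, a core subunit of PRC1, rose at BPA 250 (0.63, SE 0.18, edgeR adjusted p = 0.033). Medians of the list were -0.04 to 0.12 over the 7 exposures.

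Among 16 deacetylases and corepressors other than Hdac9, 3 passed at BPA 2.5 (11.4% of all tested genes did), 2 at BPA 250 (8.79%), 1 at BPA 25000 (2.32%) and 0 elsewhere. Hdac5, a class IIa relative of Hdac9, rose at BPA 2.5 (0.98, SE 0.22, edgeR adjusted p = 0.0055) and at BPA 25000 (0.94, SE 0.22, adjusted p = 0.025), from 50.2 ± 9.26 to 98.9 ± 9.17 and 96.4 ± 16.9 CPM. Hdac11, the class IV deacetylase, rose at BPA 2.5 (1.84, SE 0.36, edgeR adjusted p = 0.0034), from 2.31 ± 0.50 to 8.25 ± 3.05 CPM. The class I enzyme Hdac1 fell by 0.70 at BPA 2.5 (SE 0.20, edgeR adjusted p = 0.022) and by 0.75 at BPA 250 (SE 0.20, adjusted p = 0.024), from 240.1 ± 37.0 to 148 ± 26.7 and 143 ± 39.0 CPM. Medians of the list were -0.18 to 0.07.

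Of 14 genes of histone H3 lysine 9 methylation and its HP1 readers, Ehmt2, a lysine 9 methyltransferase, was the 1 that passed, at BPA 250, where 8.79% of all tested genes did (log2 fold change -0.58, SE 0.15, edgeR adjusted p = 0.023). Of the 20 proliferation genes 2 passed at BPA 2.5 (11.4% of all tested genes did) and 1 at BPA 25000 (2.32%). Bub1, a spindle checkpoint kinase, fell by 1.16 (SE 0.37, edgeR adjusted p = 0.042), and the replication licensing factor Cdc6 fell by 0.89 at BPA 25000 (SE 0.23, adjusted p = 0.038). Aurkb, a mitotic kinase, rose at BPA 2.5 (6.16, SE 1.28, edgeR adjusted p = 0.0040), but its libraries there ran from 3.16 to 921 CPM, and without the 4 libraries of low correlation the value was -0.75 (adjusted p = 0.75). In BPA 2.5 libraries 1 and 3 the summed ciliated cell markers were at 400.5 and 292.5 CPM, against 3.31 and 3.19 CPM in libraries 2 and 4, and their part in the BPA 2.5 values was not tested. The median of the proliferation list ran from -0.55 at BPA 2.5 to 0.49 at EE2 0.05.

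Calls on these partner genes that held without each single library of the groups compared were Hdac5, Hdac11 and Aurkb at BPA 2.5 and Uhrf2 at BPA 250. The other calls named were each lost without at least 1 library, with the highest edgeR adjusted p between 0.0616 for Usp7 at BPA 250 and 0.329 for Bub1 at BPA 2.5. Without the 4 libraries of low correlation all 10 partner calls at BPA 2.5 were lost (Hdac5 adjusted p = 0.0596, Hdac11 0.0718). Across any of the 8 groups 10 of 21 methylation partners, 11 of 19 Polycomb genes, 7 of 16 deacetylases and corepressors, 4 of 14 lysine 9 genes and 10 of 20 proliferation genes passed in edgeR, beside the 31.7% of all genes.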

How the data were processed

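RNA from uterus was sequenced in 32 libraries of 8 groups. The authors deposited raw read counts, whole numbers for 17327 genes. The submitters' processing notes name bcl2fastq, TopHat and edgeR with build rn5. Versions, the read counter, the annotation and strandedness were not given in the sources used here. Every column belonged to a labelled library. Gene identifiers were matched to symbols through RefSeq's GRCr8 gene table, for names only: 17167 matched, and 160, with 1.82% of counts, did not.

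Counts were fitted in R 4.3.3 with edgeR 4.0.16 (filterByExpr with a minimum count of 10 and total of 15, 13312 genes tested, TMM scaling, glmQLFit and glmQLFTest, all 32 libraries, 1 mean per group). There were 13 comparisons: each exposure with control, any of the 8 groups, the mean of each agent's doses with control, the linear trend over log10 BPA dose, the EE2 doses, and the mean of BPA with that of EE2. The threshold was an adjusted p of 0.05, and the SE was derived from the F statistic. Levels are TMM-scaled CPM, and no level is compared between genes. Correlations used log2 CPM with a prior count of 2, centred on group means, and 100000 two-sided permutations within groups. Alternatives were DESeq2's size factors, no filter, a filter of 1 CPM in 16 libraries, DESeq2 1.42.0, limma 3.58.1 voom with sample weights, a robust spread, only the groups compared, a threshold of 0.1, a prior count of 0.5, and fits without single libraries or without 4 libraries of low correlation. A proliferation list without Aurkb was added after its values were seen.

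The steps were tested on simulated counts with 200 changed genes: at EE2 0.5, 54.5% of 99 genes changed by 1 and 77% of 100 genes changed by 2 on the log2 scale were recovered. The members, the lists and the 4 libraries were chosen with earlier results of these data known. All members were named in each comparison. From each list, genes past the threshold in a comparison of 1 exposure with control were named, except for 1 result not reported here, and for each member the 3 most similar genes of mean log2 CPM of at least 1. Read counts without molecular identifiers are not independent molecules, so the counts given behind low levels, such as those of Hdac9, speak of counting error only.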

Additional observations from a re-analysis of the deposited data

Results flagged for a closer look

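In each of the 6 enzymes and 8 groups, 48 sets of 4 libraries in all, the lowest or highest library was compared with its nearest neighbour. In 1 set the gap was large against the whole range. Ezh2 in BPA 2500 library 2 was at 22.83 CPM, below the other 3 libraries of that group at 26.8, 26.2 and 26.2 CPM, and this gap took 0.844 of the group's range, above Dixon's 95% critical value for 4 samples. Chance flags about 1 in 20 groups. The value lies inside the Ezh2 range of the control libraries, 18.1 to 28.8 CPM.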

How the results depend on the processing

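Counts of the 6 enzymes called changed as follows, and the cause was not tested. With limma voom they were 2 at EE2 0.05 (0 in the edgeR fit above), 2 at EE2 0.5 (1), 1 at BPA 25 (0), 2 at BPA 25000 (1), 5 over any of the 8 groups (1), 3 for the EE2 mean (0), 2 for the BPA mean (1), 1 for the BPA trend (0) and 1 for BPA against EE2 (0). Over all 13312 genes limma voom called 1375, 1221, 2650, 4116, 9225, 1856, 2532, 2703 and 510 in these comparisons, in order. With DESeq2, and equally at a threshold of 0.1, the enzyme counts were 1 at BPA 25, 4 over any group, 1 for the EE2 mean and 1 for BPA against EE2. Over all genes DESeq2 called 1080, 5767, 333 and 383 there, and the threshold of 0.1 gave 1340, 5742, 189 and 256. With only the groups compared the enzyme counts were 0 at BPA 2.5, 0 at BPA 250, 1 for the EE2 mean and 0 for the BPA mean. Over all genes these fits called 57, 1204, 612 and 12. Without the 4 libraries of low correlation the enzyme counts were 0 at BPA 2.5, 0 at BPA 250 and 1 for the EE2 mean. Over all genes 526, 884 and 91 were called there. Without a filter the enzyme count for the BPA mean was 0, with 116 of all genes called. By r 2 correlations passed, 4 without those 4 libraries and 3 without the 2 libraries farthest from the median. By rho 3, 4 and 5 passed, the last including Dnmt3b with Hdac9 (rho 0.530, permutation adjusted p = 0.0406; 0.225 and 0.432 with all 32 libraries). With a prior count of 0.5, Dnmt1 with the proliferation mean no longer passed by rho (permutation adjusted p = 0.073).

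Leaving out 1 library at a time, counts of enzymes ran from 0 to 1 at EE2 0.5, BPA 2.5, BPA 25, BPA 250 and BPA 25000, for the EE2 mean, the BPA mean and BPA against EE2, and from 0 to 3 over any group. No other count moved in these fits. Aurkb at BPA 2.5 changed sign without the 4 libraries, to -0.75.

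Counts over all genes also moved by more than 1.5 times, and the highest came from limma voom except at BPA 2500 (DESeq2). They ran from 3 to 1375 at EE2 0.05 (6 in the edgeR fit), 42 to 1221 at EE2 0.5 (74), 57 to 4103 at BPA 2.5 (1524), 159 to 2650 at BPA 25 (256), 884 to 2991 at BPA 250 (1170), 0 to 87 at BPA 2500 (0), 231 to 4116 at BPA 25000 (309), 3546 to 9225 over any group (4220), 5 to 1856 for the EE2 mean (9), 12 to 2532 for the BPA mean (178), 1 to 2703 for the trend (615), 0 to 70 between EE2 doses (2) and 39 to 510 for BPA against EE2 (112). Leaving out 1 library, the edgeR counts over all genes ran from 0 to 7, 0 to 206, 594 to 1984, 0 to 523, 179 to 1594, 0 to 0 and 2 to 502 at these 7 exposures in order, 3478 to 5084 over any group, 0 to 152 and 1 to 537 for the EE2 and BPA means, 69 to 1615 for the trend, 0 to 6 between EE2 doses and 24 to 224 for BPA against EE2. No paired analysis was possible because the labels number the libraries in 1 series and give groups no shared replicate numbers. Depth limits Hdac9 most, with 13 to 31 counts in a control library.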
